A study of Trachemys scripta with 4 samples.

Results

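Nerve terminals release transmitter by fusing synaptic vesicles with the plasma membrane, and the 71 genes described here encode the proteins of that step and of related vesicle traffic. They were taken by symbol from a table of 15289 genes: synaptotagmins, synapsins, SV2 proteins, synaptophysins, syntaxins, syntaxin-binding proteins, SNAP proteins, VAMPs, complexins, RAB3 GTPases, the active zone proteins RIMS, UNC13, BSN and PCLO, and the adhesion pair of neurexins and neuroligins. Of these, 69 were among the 15100 genes with at least 1 TPM (reads per gene length, scaled to a fixed total of 1000000 per column) in at least 2 columns. RNA-seq was carried out on peripheral nerve, parts of the brachial and sacral plexus, dissected from embryos of the slider turtle Trachemys scripta at stage 19 (st.19) and stage 21 (st.21). Eggs came from females given oxytocin and were incubated at 28 degrees C, and the labels name no genotype or treatment other than the stage. The comparison asks which vesicle genes differed in level between both stages of nerve development.

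In a peripheral nerve, messenger RNA comes from Schwann cells, connective tissue and vessels, from the part of the RNA of neurons that is carried into axons, and from ganglion neurons where these are included in the dissection. Fusion is driven by SNARE proteins, a vesicle SNARE of the VAMP family pairing with syntaxin and SNAP25 on the plasma membrane. Munc18 and UNC13 proteins prepare the SNAREs, complexins hold and then help the assembled complex, and synaptotagmins couple it to calcium. RIM, bassoon and piccolo form the active zone where vesicles dock, and neurexins and neuroligins join the sides of a synapse. Many relatives of these proteins work at endosomes, the Golgi or the plasma membrane of every cell, so the members were divided by role into neuronal release (39 genes, 38 analysed), general trafficking (27 genes, 26 analysed) and 5 synaptotagmins with other or unclear roles.

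The table holds 2 columns of values for each stage. Within a stage, their reads differed by less than independent sampling gives: over genes of 5 to 500 reads, the mean chi-square statistic per gene, which independent libraries bring to about 1, was 0.43 over 12734 genes at st.19 and 0.33 over 12949 genes at st.21. For members in that range it was 0.20 over 47 genes and 0.18 over 60. Each stage was therefore counted as 1 sample, so a difference between stages has no replicate check and no p-value, and intervals below cover counting error only. Reads recovered from the table came to 4353821 and 4241655 in the st.19 columns and to 2229177 and 2129599 in the st.21 columns. A ribosomal RNA gene took 18.9% and 44.2% of the TPM at st.19 against 0.145% and 0.317% at st.21, and the TPM of st.19 replicate 1 lay above replicate 2 by a median log2 value of 0.53. A change is the difference in mean log2 TPM, st.21 minus st.19, and a gene was called higher or lower past a log2 change of 1 in either direction. The median gene changed by 0.06, by −0.46 when the TPM total was restricted to protein-coding genes and by −0.51 without that ribosomal RNA gene, so changes are also given relative to the median gene between the replicate 1 columns, with a 95% counting interval in parentheses.

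The vesicle genes as a whole stood lower at st.21. Of the 69 analysed, 16 were called lower and 5 higher, or 23.2% and 7.25%, where 9.68% of all genes analysed were called lower and 17.3% higher. Their median change was −0.47 against 0.06 over all genes, with 51 members below 0 and 18 above. Both st.21 columns lay below both st.19 columns for 44 members (63.8%, against 31.9% of all genes) and above them for 14 (20.3%, against 38.9%). In reads, of which the ribosomal RNA gene had 54649 and 176056 at st.19, the 71 genes took 0.869% and 0.849% of the reads of the st.19 columns and 0.509% of each st.21 column. With the TPM total restricted to protein-coding genes, 34 were called lower and 1 higher (24.6% and 7.34% of all genes). Without st.19 replicate 2 the counts were 25 and 3 (15.8% and 11.5%). Without st.19 replicate 1 they were 11 and 7 (6.09% and 25.2%), and the members' median was −0.22 against 0.33 over all genes. Relative to the median gene the members' median lay between −0.60 and −0.51 under every scaling, pseudocount and left-out column tried. Rescaling a column by a constant cannot move such a value, so those scalings are no check on it. Fewer neurons or axons, less RNA in each, or more RNA of other tissue behind lower values cannot be told apart in bulk tissue. Fibroblast markers summed to 5985 and 4066 TPM at st.19 and to 28002 and 27673 TPM at st.21. Most of this sum was collagen, with COL1A1, COL3A1 and COL1A2 at 13897, 7596 and 5431 TPM in st.21 replicate 1. Of the 9 markers 8 lay above 0, PDGFRA at 0.14, and FBLN1 lay below at −0.10. The part of fibroblast RNA in the lower vesicle gene values was not tested. The paper warns that dissecting such small nerves could have brought in surrounding tissue.

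**Figure D1:**
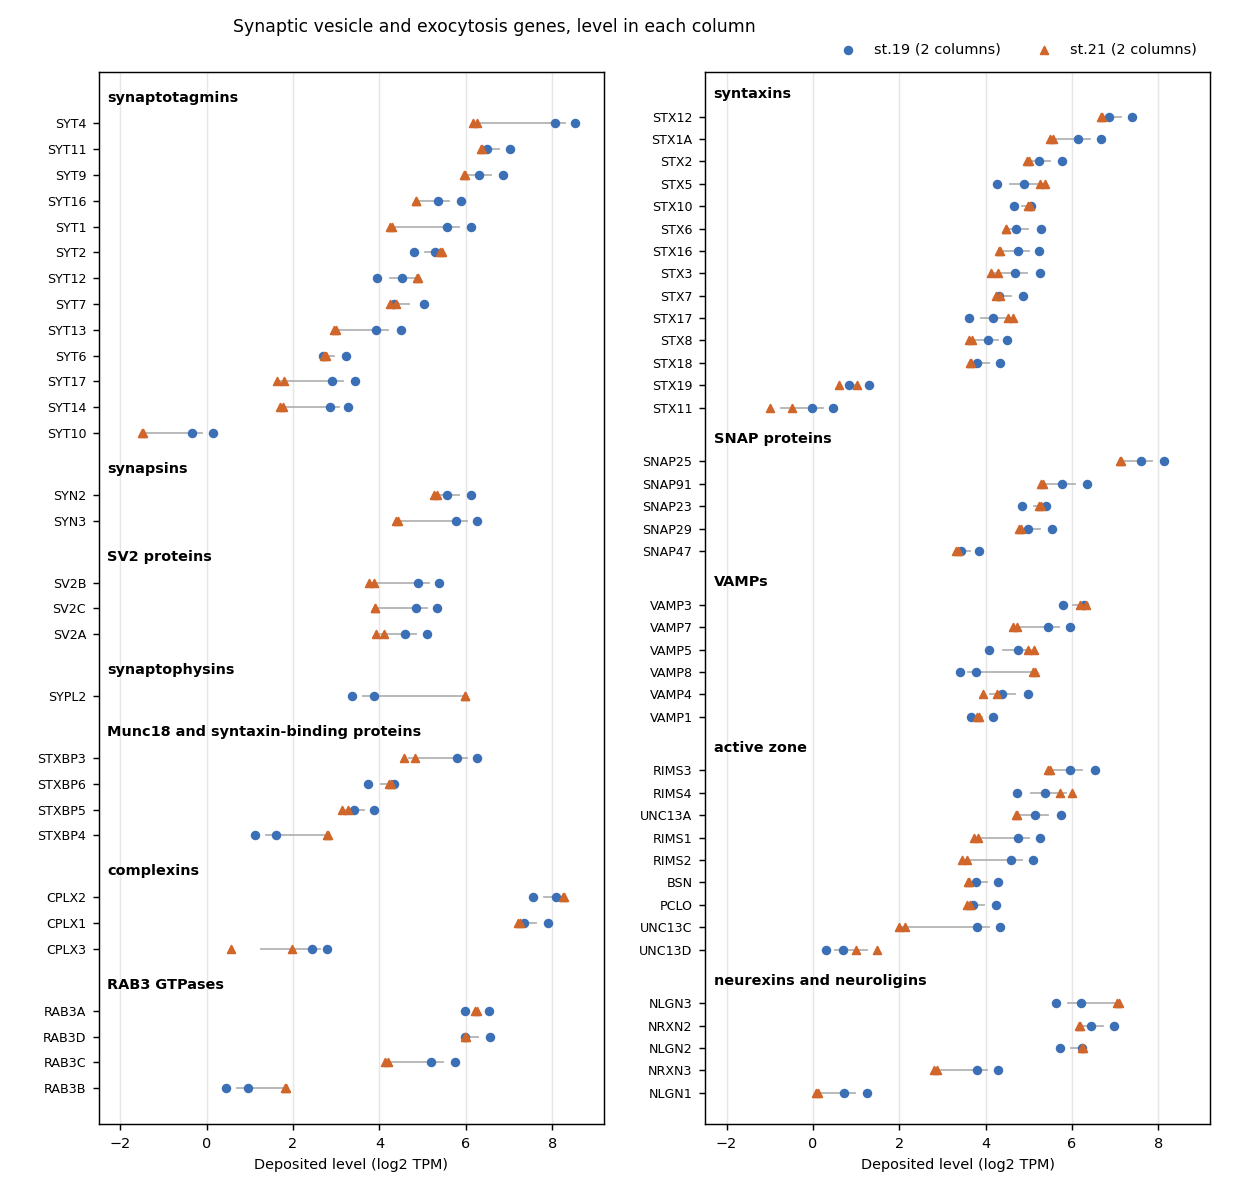
Deposited level (log2 TPM, horizontal axis) of 69 of the 71 genes by family, in the 2 st.19 columns (circles) and the 2 st.21 columns (triangles), with a grey line between the stage means. The longest lines run to the left for SYT4 and UNC13C and to the right for SYPL2.

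Divided by role, the genes of neuronal release lay lower than those of general trafficking. Among the 38 neuronal release genes 12 were called lower and 2 higher, with a median change of −0.71, while the 26 general trafficking genes had 2 lower and 3 higher and a median of −0.30. The neuronal release class includes neurexins and their postsynaptic partners, the neuroligins. Its 2 higher genes were NLGN3 and RAB3B, the latter on 2 to 3 reads per column, and its lower genes include CPLX3 on 0 to 10 reads. That is 31.6% lower and 5.26% higher for neuronal release and 7.69% and 11.5% for trafficking, where all genes had 9.68% and 17.3%. The 5 other synaptotagmins had 2 lower, 0 higher and a median of −0.77. Against the median gene, the counting intervals of both replicate pairs lay below 0 for 26 of 38 neuronal release genes and above 0 for 4, against 9 and 6 of 26 trafficking genes, where those of all 15100 genes lay below 0 for 22.5% and above 0 for 26.1%. Over the alternatives the median relative to all genes ran from −0.84 to −0.71 for neuronal release and from −0.41 to −0.30 for trafficking. Rescaling a column by a constant cannot move these medians, so only the remaining alternatives bear on them. Without st.19 replicate 2 the calls were 19 lower and 0 higher for neuronal release, where all genes had 15.8% lower and 11.5% higher. Without st.19 replicate 1 they were 8 lower and 3 higher, where all genes had 6.09% and 25.2%. The medians were then −0.43 for neuronal release, −0.02 for trafficking and 0.33 over all genes. A single trafficking gene was called lower without st.19 replicate 1 or without st.21 replicate 1, against 6.09% and 9.7% of all genes. The difference between the classes was not tested, since genes are not replicates.

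**Figure D2:**
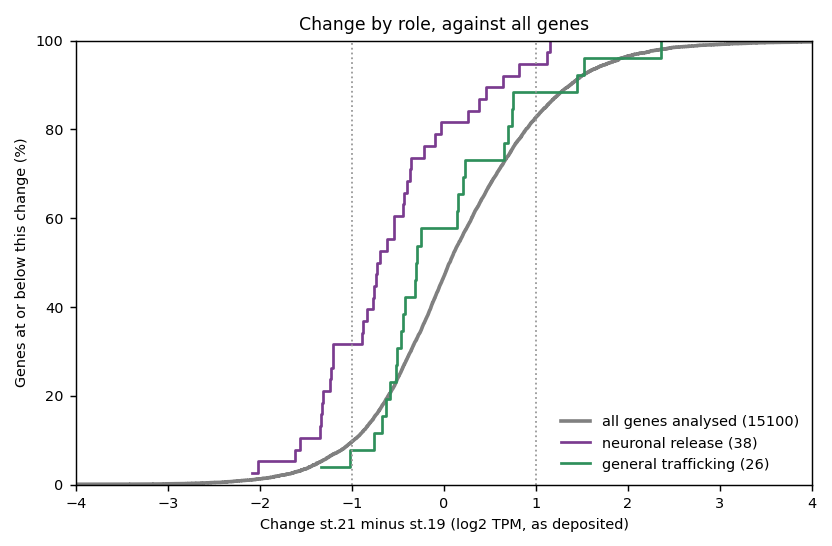
Share of genes (%, vertical axis) at or below each change (log2, horizontal axis) for all 15100 genes analysed, 38 neuronal release genes and 26 general trafficking genes, with dotted lines at a log2 change of 1 in either direction. The neuronal release curve lies to the left of the curve of all genes, with a median of −0.71 against 0.06.

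The synaptotagmins held the member that fell most. SYT4, a synaptotagmin of dense-core vesicles (chromosome 6, 8390261 to 8402282 in assembly CAS_Tse_1.0), stood at 371 and 269 TPM at st.19 and at 76.3 and 72.1 TPM at st.21. It was the most abundant of the 71 genes at st.19 and the 11th at st.21, a change of −2.09 or −2.08 (−2.25 to −1.92) relative to the median gene. SYT1, a fast calcium sensor of vesicle fusion (chromosome 1, 69636741 to 70143548), was read at 69.5 and 47.2 TPM and then at 19.7 and 18.9 TPM, a change of −1.57 or −1.63 (−1.99 to −1.30) relative to the median gene. Both genes had both st.21 columns below both st.19 columns, as did all 16 members called lower and 31.9% of all genes. A change past the limit leaves little room for overlap between the stages, so this adds no support to the calls.

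The other fast sensors differed from SYT1. SYT2, which serves the same function in fast synapses of the mammalian hindbrain, spinal cord and nerve-muscle junction, was at 39.3 and 27.7 TPM at st.19 and 42.1 and 43.7 TPM at st.21, 0.30 (−0.03 to 0.64) relative to the median gene. SYT9 went from 116 and 78.8 TPM to 62.1 and 62.7 TPM, −0.70 (−0.95 to −0.46) relative to the median gene. The ratio of SYT2 to SYT1, which no scaling of the columns can alter, was 0.566 and 0.586 at st.19 and 2.14 and 2.31 at st.21, a log2 difference of 1.94 (1.45 to 2.42). SYT1 was therefore the more abundant of this pair at st.19 and SYT2 at st.21. For SYT9 to SYT1 the log2 difference was 0.93 (0.51 to 1.36), both pairs having been chosen after the values were seen.

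Further down the family, 3 more synaptotagmins were called lower. SYT13, which lacks calcium binding, had 22.5 and 15.04 TPM at st.19 and 7.91 and 7.66 TPM at st.21 (change −1.24). SYT14 had 9.59 and 7.19 TPM and 3.39 and 3.24 TPM (change −1.33), and SYT17 had 10.8 and 7.43 TPM and 3.06 and 3.48 TPM (change −1.46), the latter from 9 and 10 reads at st.21. These 3 genes were at low levels throughout. Of the 12 synaptotagmins analysed, 5 were called lower and 0 higher (41.7% and 0%, against 9.68% and 17.3% of all genes). SYT12, another member without calcium binding, lay on the opposite side at 0.56 (0.28 to 0.84) relative to the median gene, and SYT16, SYT11, SYT7 and SYT6 changed by −0.77 to −0.21 without a call. SYT10 had 5 reads in each st.19 column and 0 in each st.21 column, where a count of 0 allows up to 3 reads, so no fold is given.

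Of the vesicle membrane proteins of neurons, SV2B and SV2C, glycoproteins of the synaptic vesicle membrane, were called lower, and SV2A was not. SV2B measured 41.9 and 29.9 TPM at st.19 and 13.6 and 14.7 TPM at st.21 (change −1.33, −1.45 (−1.94 to −0.99) relative to the median gene). SV2C measured 40.6 and 28.9 TPM and 14.8 and 14.9 TPM (change −1.20), and SV2A 34.5 and 23.97 TPM and 15.02 and 17.3 TPM (change −0.84). The 3 genes kept nearly equal parts of the family total, 28.9% to 36.9% each in every column, and the SV2B to SV2C ratio had a log2 difference of −0.19 (−0.78 to 0.39) between stages. No difference in change between SV2B and SV2C was detectable at this depth.

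Synapsins, which tether the reserve pool of vesicles, were represented by SYN2 and SYN3. SYN3 (chromosome 1, 94832081 to 95112939) was at 76.9 and 54.5 TPM at st.19 and 21.4 and 20.7 TPM at st.21, a change of −1.62 or −1.66 (−2.08 to −1.27) relative to the median gene. SYN2 was at 69.9 and 47.4 TPM and then 40.4 and 38.5 TPM (change −0.54). SYN3 was the larger of the pair at st.19 and the smaller at st.21, with 52.4% and 53.5% of the synapsin TPM and then 34.6% and 35.0%. Each synapsin gene span contains a gene of the TIMP family of metalloproteinase inhibitors. TIMP3, inside SYN3, had 266 and 269 reads at st.19 and 199 and 196 at st.21, so it made up a smaller part of its column's reads at st.19 than at st.21, unlike SYN3, and TIMP4, inside SYN2, had 11 to 19 reads per column.

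The largest rise among the 71 genes was that of SYPL2 (chromosome 4, 137827718 to 137849420), a synaptophysin relative known in mammals as mitsugumin-29 of skeletal muscle. Its level was 14.6 and 10.3 TPM at st.19 and 63.1 and 63.5 TPM at st.21. Both st.21 values lay above both st.19 values, as for all 5 members called higher and 38.9% of all genes. A change past the limit leaves little room for anything else, so this adds no support to the call. The change was 2.36, or 2.34 (2.02 to 2.67) relative to the median gene, and it stayed past 1 under each scaling and left-out column tried. Skeletal muscle markers rose beside it. All 12 analysed of 14 listed were called higher, against 17.3% of all genes, with a median change of 4.97. Their summed TPM was 119 and 77.7 at st.19 and 2982 and 2958 at st.21. None of these 12 was without reads at st.19, and the part of muscle RNA in the SYPL2 value was not tested.

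On the plasma membrane side, both neuronal SNAREs lay below the median gene without passing the limit. SNAP25 was at 281 and 193 TPM at st.19 and 138 and 139.9 TPM at st.21 (change −0.74, −0.82 (−1.01 to −0.64) relative to the median gene). STX1A, its syntaxin partner, was at 102 and 70.3 TPM and 44.7 and 46.9 TPM (change −0.89, −0.997 (−1.33 to −0.67)). Both intervals lay below 0. Between stages, the log2 ratio of SNAP25 to STX1A differed by 0.17 (−0.21 to 0.56), so no shift in the proportions of these partners was detectable.

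Syntaxins of other membranes were mixed, and none of the 13 syntaxins analysed was called. Of all genes, 9.68% were called lower and 17.3% higher. STX12, an endosomal syntaxin and the most abundant of the family, was at 169 and 116 TPM and 102 and 103 TPM (change −0.45). The intervals of STX2 and STX3 at the plasma membrane and of STX6, STX12 and STX16 on endosomes and the Golgi lay below 0, and those of STX5, a Golgi SNARE, and STX17, a SNARE of autophagosomes, lay above it at 0.69 (0.38 to 0.998) and 0.58 (0.12 to 1.03). STX11 and STX19 had 3 or fewer reads in each st.21 column. SNAP23, the SNAP25 relative found in most cells, was at 0.10 (−0.20 to 0.38) relative to the median gene, and its ratio to SNAP25 went from 0.149 and 0.149 to 0.282 and 0.269. SNAP91, the clathrin adaptor AP180 of vesicle recycling that shares only the acronym with the SNAREs, was at 81.2 and 54.8 TPM and 40.2 and 38.6 TPM (change −0.76), and SNAP29 and SNAP47 changed by −0.47 and −0.30.

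Among vesicle SNAREs, VAMP7 was called lower and VAMP8 higher. VAMP7, a SNARE of late endosomes and of vesicles that add membrane to growing neurites, was at 62.1 and 43.6 TPM at st.19 and 24.8 and 26.4 TPM at st.21 (change −1.02, −1.14 (−1.52 to −0.77) relative to the median gene). VAMP8, an endosomal SNARE abundant in epithelial and blood cells, was at 13.7 and 10.7 TPM and 34.1 and 35.4 TPM (change 1.52, 1.58 (0.95 to 2.23)), from 39 to 49 reads per column. VAMP7 lost its call without mitochondrially encoded genes, without st.19 replicate 1 and without st.21 replicate 1 (−0.98 to −0.77), and VAMP8 lost its call with the protein-coding total and without the ribosomal RNA gene in the total (0.95 at the lowest). VAMP7 held 27.1% and 27.3% of the VAMP total at st.19 and 12.03% and 13.5% at st.21, and VAMP8 went the other way from 5.997% and 6.68% to 16.6% and 18.04%. VAMP8 lies beside VAMP5, a VAMP of muscle in mammals, on chromosome 2 (141126255 to 141137379 for VAMP5, 141145085 to 141150852 for VAMP8), and VAMP5 was at 0.59 (0.23 to 0.95) relative to the median gene. VAMP3, the family's most abundant member and a SNARE of recycling endosomes, was at 77.03 and 55.1 TPM and 79.4 and 73.1 TPM (change 0.23), and VAMP1, the synaptobrevin of the table, at 17.97 and 12.7 TPM and 13.9 and 14.4 TPM (change −0.10), with 42 to 113 reads per column and an interval relative to the median gene of −0.17 (−0.72 to 0.35). Immune markers stood beside VAMP8: 6 of 8 analysed were called higher (75.0%, against 17.3% of all genes). Their summed TPM was 74.6 and 51.1 at st.19 and 236 and 237 at st.21. SPI1, which marks myeloid cells, had 0 reads in both st.19 columns and 5 in each st.21 column. The other immune markers analysed had reads in all 4 columns, C1QA with 48 and 43 at st.19. The part of immune cells in the VAMP8 value was not tested.

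Of the syntaxin-binding proteins, STXBP3 was called lower and STXBP4 higher. STXBP3, the Munc18 form found in most cells, was at 77.1 and 55.5 TPM at st.19 and 23.7 and 28.3 TPM at st.21 (change −1.34, −1.52 (−1.95 to −1.12) relative to the median gene). STXBP4, which binds syntaxin 4 in mammals, was at 3.05 and 2.17 TPM and 6.93 and 7.04 TPM (change 1.44, 1.44 (0.82 to 2.07)), from 42 to 49 reads per column. The STXBP4 call was lost with the protein-coding total and without the ribosomal RNA gene in the total (0.92 and 0.87). Both of these genes belong to general trafficking. STXBP5, the tomosyn that holds syntaxin 1 and SNAP25, and STXBP6 changed by −0.45 and 0.21.

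CPLX2 and CPLX1, which clamp and promote SNARE fusion, differed in direction. CPLX2 (chromosome 8, 1408434 to 1471406) was at 271 and 187 TPM at st.19 and 307 and 309 TPM at st.21, a change of 0.45 or 0.38 (0.29 to 0.48) relative to the median gene. CPLX1 was at 239 and 164 TPM and 152 and 148 TPM (change −0.40, −0.46 (−0.57 to −0.34)). Their ratio, CPLX2 to CPLX1, was 1.13 and 1.14 at st.19 and 2.02 and 2.09 at st.21, a log2 difference of 0.84 (0.69 to 0.99) on 737 to 2561 reads per gene and column. CPLX2 exceeded CPLX1 by little at st.19 and by more at st.21. The sign of the CPLX2 change itself depended on scaling, from −0.11 to 0.72 over the alternatives. CPLX3 was called lower but rested on 9 and 10 reads at st.19 and 2 and 0 at st.21, with an interval of −0.92 (−4.17 to 1.36) relative to the median gene that includes 0.

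In order of level, the genes at the top changed places. At st.19 SYT4 led, followed by SNAP25 and CPLX2, and the counting interval of the ratio between SNAP25 and CPLX2 (log2 −0.05 to 0.15) included 0. At st.21 CPLX2 led CPLX1 by a log2 ratio of 1.02 (0.89 to 1.15). CPLX1, SNAP25 and NLGN3 came next, and each ratio between neighbours among these 3 had an interval that included 0. All these ratios are per length and come from the replicate 1 column of each stage.

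RAB3 GTPases, which sit on vesicles of regulated secretion, were split. RAB3C was called lower, at 53.7 and 36.8 TPM at st.19 and 18.2 and 17.6 TPM at st.21 (change −1.31, −1.37 (−1.63 to −1.11) relative to the median gene). RAB3A, the main form of brain synapses in mammals, was at 93.5 and 63.6 TPM and 76.03 and 74.7 TPM (−0.10 (−0.35 to 0.15) relative to the median gene), and RAB3D, the form of exocrine cells, at 94.4 and 63.1 TPM and 62.6 and 63.8 TPM (change −0.29). The RAB3A columns of the stages overlapped. RAB3B counted among the 5 higher genes on 2 to 3 reads per column, at or under the floor of 3 reads, so no fold is given for it.

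At the active zone, 3 of 9 genes were called lower and none higher (33.3% and 0%, against 9.68% and 17.3% of all genes). UNC13C, a Munc13 priming protein of the cerebellum in mammals (chromosome 10, 61434749 to 61833305), was at 20.2 and 14.01 TPM at st.19 and 4.35 and 3.95 TPM at st.21, a change of −2.02 or −2.05 (−2.64 to −1.52) relative to the median gene. The RIM scaffolds RIMS1 and RIMS2 were at 38.5 and 26.7 TPM and at 34.1 and 24.1 TPM at st.19. At st.21 they were at 13.2 and 14.2 TPM and at 11.8 and 10.9 TPM, changes of −1.23 and −1.33. These long RIM forms and UNC13C fell together, and their intervals relative to the median gene were −1.35 (−1.69 to −1.03), −1.34 (−1.70 to −0.99) and −2.05 (−2.64 to −1.52).

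The short RIM forms diverged from each other. RIMS3, the family's most abundant member at st.19, was at 92.1 and 61.9 TPM and then 44.6 and 43.8 TPM (change −0.77). RIMS4 was at 41.3 and 26.3 TPM and then 63.8 and 52.4 TPM (change 0.81, 0.85 (0.38 to 1.31) relative to the median gene). The ratio of RIMS3 to RIMS4 was 2.23 and 2.36 at st.19 and 0.70 and 0.834 at st.21, a log2 difference of −1.69 (−2.22 to −1.16), so their order was reversed. UNC13A, the main Munc13 of brain synapses, changed by −0.73, and the giant scaffolds BSN (bassoon) and PCLO (piccolo) by −0.43 and −0.37, and UNC13C to UNC13A had a log2 ratio difference of −1.23 (−1.86 to −0.64). UNC13D, a Munc13 of blood cells, had 8 to 14 reads per column and an interval that included 0.

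Of the adhesion genes, neurexin 3 was called lower and neuroligin 3 higher. NRXN3 was called lower, at 19.5 and 13.9 TPM at st.19 and 6.95 and 7.33 TPM at st.21 (change −1.20, −1.30 (−1.73 to −0.90) relative to the median gene). NRXN2, also a presynaptic receptor, was at −0.58 (−0.72 to −0.45). NLGN3 (chromosome 9, 485494 to 532694), a neurexin partner that rodents also express in glia, was at 73.7 and 49.04 TPM at st.19 and 136 and 132 TPM at st.21, a change of 1.16 or 1.09 (0.94 to 1.25) relative to the median gene. It was above 0 under each alternative, from 0.59 to 1.45, and lost its call without st.19 replicate 2, with the protein-coding total, without the ribosomal RNA gene in the total and when quantiles were equalised. The ratio of NLGN3 to NRXN2 was 0.587 and 0.564 at st.19 and 1.87 and 1.86 at st.21, so that the receptor was the more abundant at st.19 and its partner at st.21. NLGN2, the form of inhibitory synapses, was at 0.20 (−0.001 to 0.41) relative to the median gene, and NLGN1 had 5 reads in each st.21 column.

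Of the Schwann cell markers analysed, 12 lay above 0, the direction of NLGN3, and 2 below, S100B at −0.40 and CDH19 at −0.32. Of 14 analysed of 15 listed, 5 were called higher and 0 lower (35.7% and 0%, against 17.3% and 9.68% of all genes), with a median change of 0.89. Their summed TPM was 3752 and 2473 at st.19 and 6401 and 6254 at st.21. All 14 had reads in all 4 columns. The medians of fibroblast, endothelial, immune and skeletal muscle markers lay above 0 too, at 1.17, 1.07, 2.28 and 4.97. Those of neuron and neuroendocrine markers lay below 0, at −0.62 and −1.19. The part of Schwann cells or of other cells in the NLGN3 value was not tested.

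**Figure D3:**
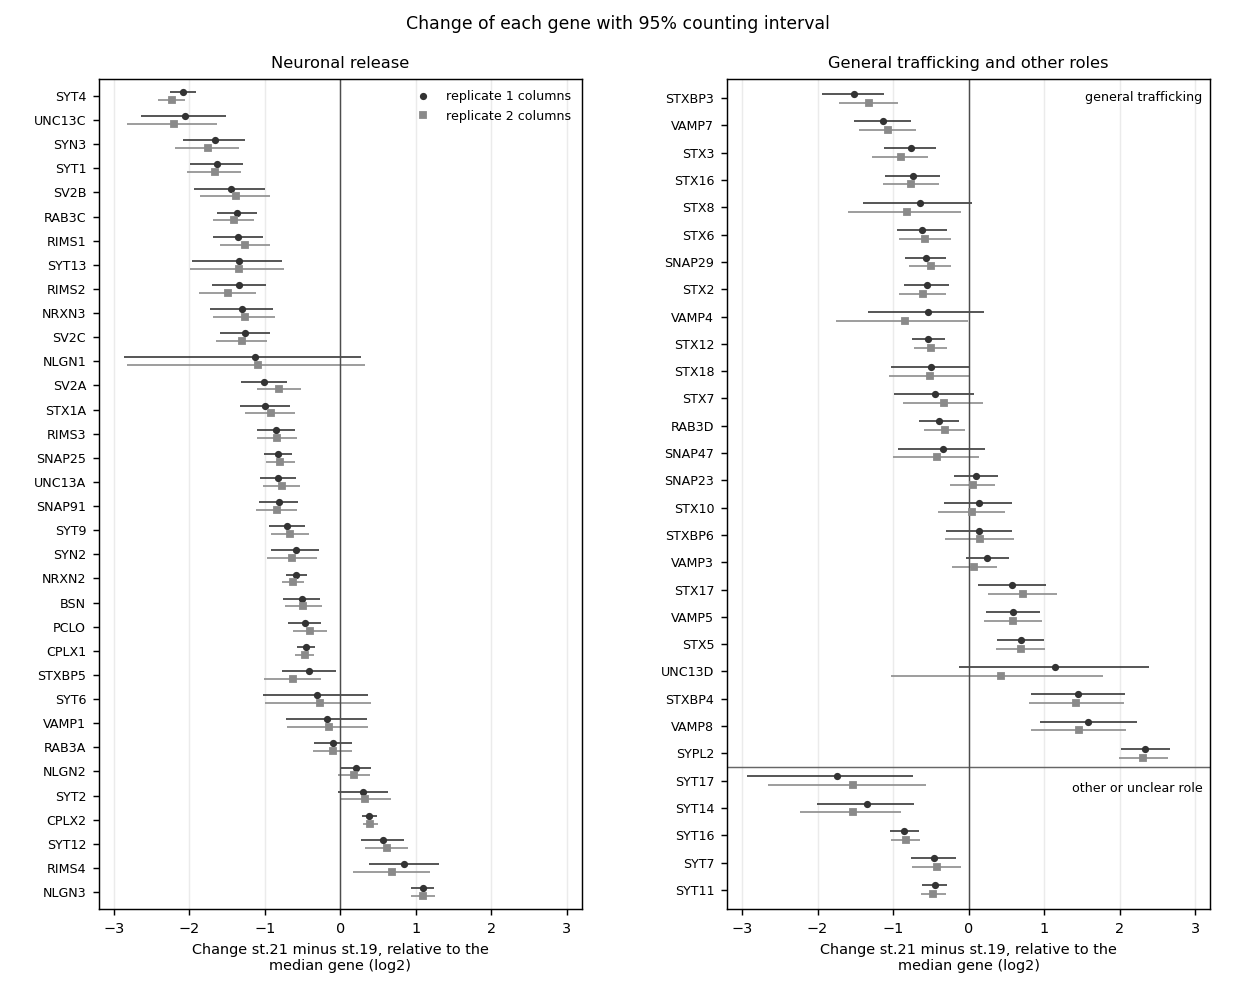
Change between stages relative to the median gene (log2, horizontal axis) with 95% counting intervals, for replicate 1 columns (dark circles) and replicate 2 columns (grey squares), in 64 of the 71 genes, leaving out 5 with 3 or fewer reads in both columns of a stage and 2 not reported here. Among the neuronal release genes drawn, SYT4 lies lowest and NLGN3 highest, and SYPL2 is highest of the remainder.

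Since ratios within a family do not depend on how a column is scaled, the make-up of each family was compared too. SYT4 held 41.5% and 43.0% of the synaptotagmin TPM at st.19 and 19.9% and 19.1% at st.21, while SYT2 went from 4.40% and 4.42% to 10.99% and 11.5%. SYT11 went from 14.5% and 14.4% to 21.6% and 21.7%. A larger share is not a higher level, since SYT11 itself went from 130 and 89.9 TPM to 82.8 and 81.9 TPM (change −0.39). CPLX2 went from 52.4% and 52.5% to 66.3% and 67.4% of the complexins. RIMS4 went from 12.9% and 12.2% of the active zone genes to 33.4% and 29.5%. In each of these the columns of a stage lay close together and apart from those of the other stage. Closeness within a stage is no replicate check on these shares, since the columns of a stage were not counted as separate samples.

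**Figure D4:**
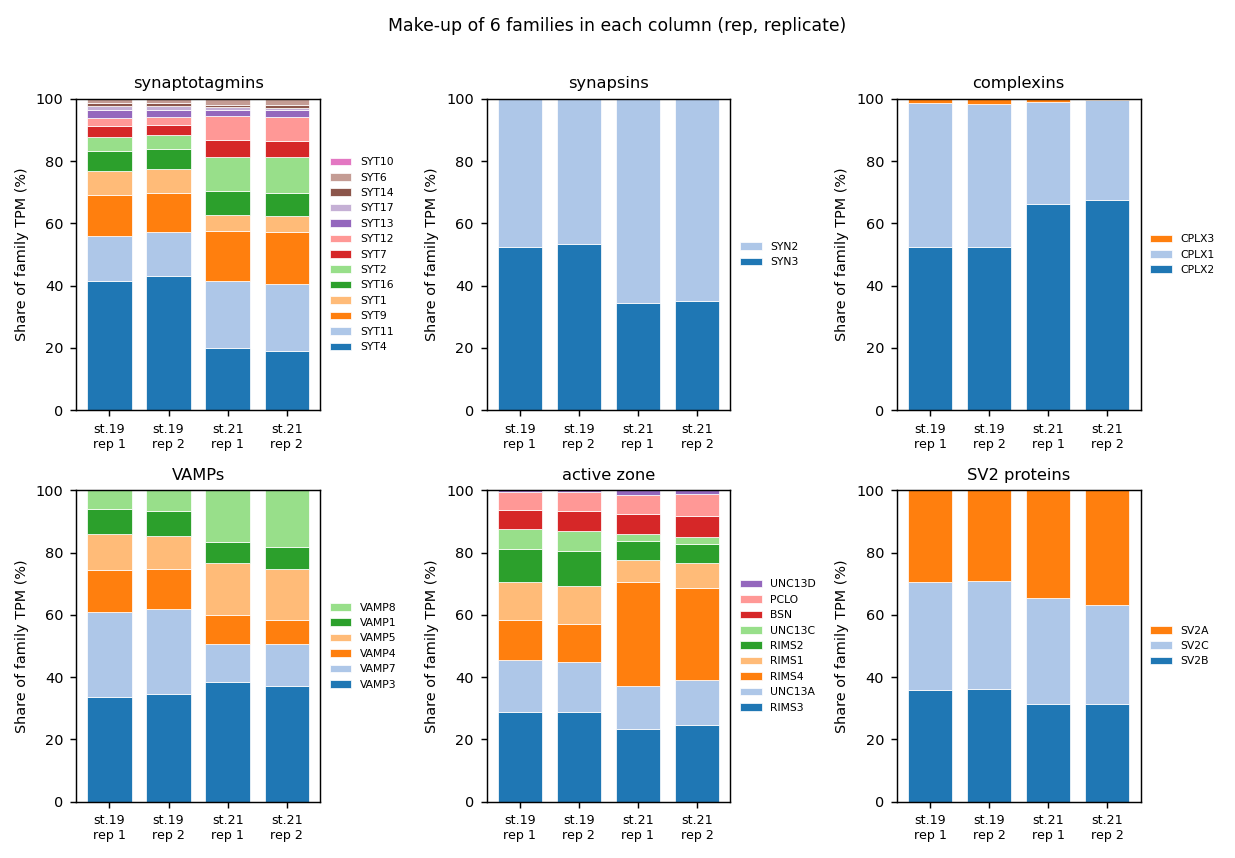
Share of the family's summed TPM (%, vertical axis) held by each gene in the 4 columns, for 6 families. SYT4 shrinks from 41.5% and 43.0% to 19.9% and 19.1% of the synaptotagmins, and RIMS4 and CPLX2 take larger shares at st.21.

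Other genes of the vesicle cycle, taken from 4 lists with 87 genes analysed, had 17 lower and 7 higher (19.5% and 8.05%, against 9.68% and 17.3% of all genes) and a median change of −0.26. The endocytosis list had 1 lower and 2 higher of 26 genes (3.85% and 7.69%) and a median of 0.15. The partners that disassemble, prime and tether SNAREs had 11 lower and 1 higher of 37 (29.7% and 2.70%) and a median of −0.28. Among them ERC2, an active zone scaffold, went from 19.1 and 13.3 TPM to 3.27 and 3.24 TPM (change −2.29), and PPFIA2, a liprin of the same site, from 32.7 and 23.2 TPM to 8.34 and 8.47 TPM (change −1.71). SYTL1, a synaptotagmin-like protein, was called higher on 2 to 16 reads per column.

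Of the transporters that fill vesicles and the pumps that drive them, 2 of 12 were called lower and 1 higher (16.7% and 8.33%). Of all genes, 9.68% were called lower and 17.3% higher. SLC17A6, a vesicular glutamate transporter, was at 112 and 77.1 TPM at st.19 and 36.8 and 38.8 TPM at st.21 (change −1.30). SLC18A2, the monoamine transporter, had 48 and 44 reads at st.19 and 3 reads in each st.21 column. SLC18A3, the acetylcholine transporter, was at 5.98 and 4.59 TPM and 4.23 and 3.59 TPM (change −0.43). Proton pump subunits, which acidify vesicles and lysosomes alike, lay between −0.68 and 0.49 apart from ATP6V0D1, which was called higher (change 1.45). The 12 other vesicle membrane and coat genes had 3 called in each direction and a median of −0.04. SVOP, a relative of the SV2 proteins, was lower at −1.49, and SYNGR2, a synaptogyrin of most cells, was higher at 1.22.

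The labelled tissue was checked against markers, and the neuronal ones were mixed. Of 21 neuron markers analysed of 24 listed, 15 lay below 0 and 6 above, with a median change of −0.62. Among the 21, 8 were called lower and 0 higher (38.1% and 0%, against 9.68% and 17.3% of all genes). Their summed TPM was 9317 and 6391 at st.19 and 6956 and 7035 at st.21, the st.21 sums lying between those of st.19. ISL1 and POU4F1, transcription factors of sensory ganglion neurons (ISL1 also of motor neurons), had reads in all 4 columns. ISL1 was at 267 and 189 TPM and 90.7 and 88.9 TPM, and POU4F1 at 47.7 and 30.2 TPM and 31.6 and 32.7 TPM (change −0.24). STMN2 and DCX, genes of growing neurons, were called lower (−1.17 and −1.46), while the neurofilament genes NEFL and NEFH changed by 0.39 and 0.70. THY1, RBFOX3, PRPH and INA also lay above 0, at 0.69, 0.40, 0.36 and 0.04. Neuroendocrine markers were lower, with 7 of 11 called lower (63.6%, against 9.68% of all genes), 0 called higher and a median of −1.19. Their summed TPM was 456 and 319 at st.19 and 167 and 169 at st.21. CHGB, a granin of dense-core vesicles, was among them at −2.59. Fibroblast and endothelial markers had 5 of 9 and 4 of 8 called higher and none lower, and epithelial markers had at most 8 reads per column. The part of a change in neuron content in the vesicle gene values was not tested.

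The spans of some members, introns included, overlap those of other annotated genes, which may bear on how reads were assigned. Shared exons were not examined. Besides the synapsins, the spans of SYT1, SYT9, RIMS2, NLGN3 and STX5 overlap long noncoding RNA genes of the table, with at most 73 reads per column against 599 for SYT1 and 735 for NLGN3. STX8 overlaps NTN1, and STX18 overlaps NSG1, a neuron marker that was itself called lower (−1.74). The kit named in the labels keeps strand, but whether counting used it is not given in the sources used here. Reads of any partner on the opposite strand may not have been kept apart, and strands were not compared. Of 75 annotated symbols that fit the rule, CPLX4, STXBP2, SYPL1 and SYT8 were not among the 15289 genes. SYT10 and STX11 were among them but did not reach 1 TPM in 2 columns.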

How the data were processed

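The authors aligned single-end reads to the T. scripta elegans assembly CAS_Tse_1.0 with HISAT2 and counted reads per gene with featureCounts. The authors kept expressed genes with edgeR 3.42.4 and deposited log2 TPM with a prior count added. The columns named 212 were taken as st.21, the stage of the remaining labels. Whole reads and gene lengths were recovered from these values for 15286 of 15289 genes, and 100% of the values came out whole within a relative tolerance of 1e-06. Symbols, chromosomes and positions came from the RefSeq annotation of the same assembly, in which all 71 members matched.

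Changes were computed with Python 3.11.15, numpy 2.4.6, pandas 2.3.3 and scipy 1.17.1. Exact Clopper-Pearson 95% intervals on recovered reads cover counting error only, since the reads carry no molecular identifiers. Full values were given for members past the limit with more than 3 reads in some column and for the most abundant member of each family, and up to 3 genes past the limit were named from each further list. The other ratios, neighbouring genes and markers were named after their values were seen. The members and lists were chosen with earlier results of these data known. Alternatives covered scaling, the genes in the TPM total, the pseudocount, the filter on low values and each column left out. A fit with limma 3.58.1 in R 4.3.3, tested on simulated data, treated the 4 columns as separate samples and compares columns, not stages. Some results are not reported here.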

Additional observations from a re-analysis of the deposited data

How the results depend on the processing

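No member that was called changed direction under any alternative, and 10 of the 16 lower genes and SYPL2 of the higher ones kept their call under 12 settings of scaling, pseudocount and left-out columns. With the total restricted to protein-coding genes, 1 member was higher and 34 lower (24.6% of all genes lower, 7.34% higher) with a median of −0.995, split into 0 and 23 for neuronal release (median −1.24) and 1 and 8 for trafficking (median −0.82). Without the ribosomal RNA gene in the total, an alternative added after seeing the data, the values were 1 and 37 (27.1% of all genes lower, 7.09% higher, median −1.04), 0 and 24 (−1.28) and 1 and 10 (−0.86). Neuronal release had 1 higher gene with quantile normalization, with at least 5 TPM in 2 columns, with genes of more than 3 reads (added after seeing the data) and with limma without a block. Trafficking had 1 lower gene without mitochondrially encoded genes and with limma without a block. Without st.19 replicate 1, RIMS1, SV2C, SYT13 and NRXN3 lost their calls, at −0.97 to −0.95. With each column left out in turn, members higher ranged from 3 to 7 and lower from 11 to 25. Over the same settings 11.5% to 25.2% of all genes were higher and 6.09% to 15.8% lower. Neuronal release ranged from 0 to 3 higher and from 8 to 19 lower, and trafficking lower from 1 to 3. The limma fit called 4 members higher and 15 lower at an adjusted p under 0.01 (14.4% and 7.65% of all genes). With a replicate block it called 2 members higher and 4 lower (7.84% and 3.81% of all genes), with 0 and 3 in neuronal release and 0 lower in trafficking. The labels give same-numbered columns no link beyond the number. The differences between replicates 1 and 2 in the 2 stages correlated at −0.16 across members and 0.28 across all genes. Same-numbered columns thus deviated together to some extent over all genes but not over members, and genes are not independent replicates. Depth limits genes of few reads, and 5 members had 3 or fewer reads in both columns of a stage.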
